A study of Mus musculus with 4 samples.

Results

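Gene expression with tranylcypromine was set against that with a control siRNA in differentiating 3T3-L1 cells, mouse embryo fibroblasts of an established line that become adipocytes under a cocktail of insulin, dexamethasone and isobutylmethylxanthine. The comparison covered every gene that passed a filter on signal: 10788 of the 18194 genes named on the array, with 1 array on each side out of 4 in all. In 1 culture tranylcypromine was part of the induction medium, at a dose not given in the sources used here, and no siRNA is named in its labels. The control culture received a control siRNA (siGL3) 24 h before induction. Another pair of cultures received siRNA against Aof2 or against Rfk in the same way, and they serve below to show where the tranylcypromine signal stood among all 4 arrays. The 4 cultures shared a medium with 25 mM glucose and 10% serum, the same inducers, and a harvest 24 h after induction. Because the control was transfected and the labels name no transfection for the tranylcypromine culture, drug and transfection cannot be told apart. With 1 array per group no test was possible, so "higher" and "lower" describe these arrays and carry no p-value.

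Tranylcypromine is a cyclopropylamine drug that inactivates enzymes with a flavin adenine dinucleotide cofactor, the monoamine oxidases and the lysine demethylase LSD1 among them. LSD1, encoded by Kdm1a (formerly Aof2), removes methyl groups from lysine 4 of histone H3 within the CoREST and NuRD complexes and acts mostly as a repressor. Riboflavin kinase, encoded by Rfk, makes flavin mononucleotide, the precursor of that cofactor. In the day after induction preadipocytes re-enter the cell cycle and switch on the early adipogenic transcription factors, before most genes of mature fat cells are expressed.

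The values are MAS5 signals, a linear brightness per probe set computed from perfect-match and mismatch probes, and differences are log2 of the tranylcypromine signal minus log2 of the control siRNA signal. Each gene stood for the brightest of its probe sets by mean log2 signal. It was compared when that mean was at or over the median probe set, which had a signal of 50.9. Just inside this limit lay Col4a6, with a mean of 51.0 and signals of 66.1 with tranylcypromine and 46.7 with control siRNA, and just outside it lay Reep6, with a mean of 50.9 and signals of 60.2 and 44.4 in the same arrays. The arrays had been scaled alike: after trimming 2% of probe sets from either end, the mean signal came to 500.003 on each, and the median signals were 55.6 with tranylcypromine, 56.2 with aof2 siRNA, 53.4 with rfk siRNA and 53.3 with control siRNA. RNA integrity measures lay close together, with a 3' over 5' ratio for Gapdh of 0.836 with tranylcypromine and 0.834 with control siRNA, and for beta-actin of 1.28 with tranylcypromine and 1.27 with control siRNA. The labelled cell type was checked against markers. Of 9 fibroblast markers 8 reached the filter, with summed signals over the 9 of 81986 with tranylcypromine and 81821 with control siRNA. Of 7 adipocyte markers 2 did, Fabp4 and Retn. Summed signals over the 7, dim ones included, were 1299 with tranylcypromine and 2646 with control siRNA, and Adipoq and Lep were dim on both arrays. In RNA from a whole culture, fewer cells of a type and less RNA per cell cannot be told apart.

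The enzymes the drug is known to inactivate, and Rfk, had similar mRNA levels on both arrays. Kdm1a had signals of 3054 with tranylcypromine, 681 with aof2 siRNA, 3471 with rfk siRNA and 3494 with control siRNA, so that the low array was the one labelled for its siRNA, and the tranylcypromine signal was 87.4% of control. Its relative Kdm1b, which demethylates the same histone residue, had signals of 408 with tranylcypromine against 412 with control siRNA. Maoa, the monoamine oxidase that breaks down serotonin and noradrenaline, had 2827 with tranylcypromine against 2873 with control siRNA. Maob lay far below the filter at 3.04 with tranylcypromine against 0.95 with control siRNA, signals too dim to give a ratio. Rfk stood at 2334 with tranylcypromine against 2122 with control siRNA, against 573 with the siRNA against it. Of these 5 genes 4 therefore stood close to control, and Maob was too dim to compare.

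The list of the drug's targets and amine oxidases, which also held Pcyox1, not an amine oxidase, was not uniformly shifted. Of 10 compared, Kdm1a, Kdm1b and Maoa included, 4 lay above control and 6 below, with a median log2 difference of -0.02, the same as the median over all 10788 genes, of which 48% lay above control and 52% below. Aoc3, the semicarbazide-sensitive amine oxidase of fat cells, had signals of 151 in the tranylcypromine array, against 339, 268 and 304 in the aof2, rfk and control siRNA arrays, which made it the lowest of the list at -1.01. Loxl4, a lysyl oxidase that crosslinks collagen, stood at -0.95, with its other probe set at -0.22. Loxl1 stood at 0.45, Pcyox1 at 0.29 and the spermine oxidase gene Smox at 0.27. In polyamine metabolism 6 of 9 genes were above control (median 0.11), with the rate-limiting enzyme Odc1 at 0.33, its inhibitor Oaz1 at 0.39 and Azin2 at -0.70.

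Partners of LSD1 split evenly, 10 of 20 above control and 10 below (median -0.01). Hdac1, the deacetylase that works beside LSD1, was the lowest, with signals of 2337 in the tranylcypromine array, against 2741, 3377 and 3622 in the aof2, rfk and control siRNA arrays. It was at 64.5% of control, and the tranylcypromine signal was the lowest of the 4. The repressor Rest stood at -0.24. Rcor1, the scaffold that joins LSD1 to nucleosomes, stood at 0.50 and Gse1 at 0.86, but the probe sets of Gse1 ranged from 0.03 to 3.01. Among 30 other histone lysine methylation enzymes 9 were above control and 21 below (median -0.08), and 0 differed by 1.5-fold, with Kmt2a at -0.51 and Kmt2c at 0.36 as the extremes.

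Across all genes, 241 of 10788 (2.23%) were at least 2-fold higher with tranylcypromine and 102 (0.945%) at least 2-fold lower. At 1.5-fold the counts were 807 higher (7.48%) and 515 lower (4.77%), but 670 and 663 after the arrays were centred on their medians, so the excess of higher genes at 1.5-fold depended on the scaling. At 2-fold they were 203 higher and 132 lower after centring, and 104 higher and 80 lower against the mean of the 3 siRNA arrays. The size of the excess at 2-fold thus depended on the scaling and on the single control array. The middle 50% of genes lay between -0.21 and 0.20 on the log2 scale, and the central 90% between -0.57 and 0.72. Many of the 2-fold genes were dim: the 241 had a median mean signal of 185 and the 102 one of 112, against 705 for all genes compared. Among the 6873 bright genes, those whose mean signal was 414 or more (percentile 75 over all probe sets), 67 (0.975%) were 2-fold higher and 21 (0.306%) lower, and at 1.5-fold 275 (4%) were higher and 159 (2.31%) lower. Probe sets gave a measure of scatter within these arrays: in 5228 genes with several at the filter, the highest and lowest lay apart by a median of 0.34, and the pooled SD within a gene was 0.36, or 0.22 among bright probe sets. Probe sets of a gene share the culture, RNA and array, so this spread does not measure scatter between arrays or cultures. Of the 241 higher genes, 74 had several probe sets at the filter and in 62 of these all lay on the same side of control; of the 102 lower genes, 24 had several and in 20 all agreed in side.

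**Figure D1:**
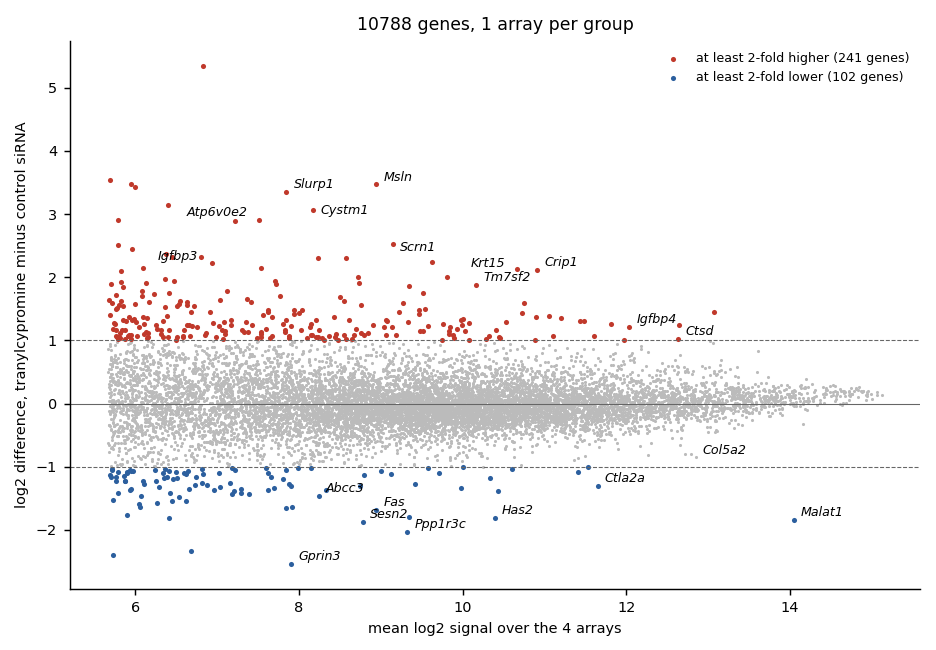
Log2 difference of tranylcypromine minus control siRNA (vertical axis) against mean log2 signal over the 4 arrays (horizontal axis) for 10788 genes, 1 point per gene and 1 array per group, with dashed lines at 2-fold. Red points are the 241 genes at least 2-fold higher, blue points the 102 at least 2-fold lower, and the scatter widens towards dim genes on the left.

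The point furthest above control in that plot is Ppp1r1b, which encodes the phosphatase inhibitor DARPP-32 and was picked out after its values were seen. Its signals were 387 with tranylcypromine, 202 with aof2 siRNA, 221 with rfk siRNA and 9.50 with control siRNA. The control value lay far below the filter, so the log2 difference of 5.35 has no reliable size. Genes were therefore followed below only where the brighter of the 2 arrays reached a signal of 414 and all probe sets at the filter lay on the same side of control, which held for 5237 genes. The 20 highest and 20 lowest of these are described next.

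Among the 20 highest genes were several that encode surface proteins or keratins. Msln, the membrane glycoprotein mesothelin, had signals of 2149.6 with tranylcypromine, 846 with aof2 siRNA, 167 with rfk siRNA and 194 with control siRNA, an 11.1-fold difference. Slurp1, a secreted protein of the Ly6 family known from keratinocytes, had 840.5 with tranylcypromine, 445 with aof2 siRNA, 91.3 with rfk siRNA and 82.2 with control siRNA, or 10.2-fold. In both genes the rfk and control siRNA arrays lay close together, the aof2 siRNA array lay between, and the tranylcypromine array was the highest. Cystm1, a small membrane protein, had 962 in the tranylcypromine array, against 458, 136 and 115 in the aof2, rfk and control siRNA arrays. Krt19 and Krt15, keratins of simple and stratified epithelia, gave 444 in the tranylcypromine array, against 267, 101 and 100.1 in the aof2, rfk and control siRNA arrays for Krt19, and 2861 in the tranylcypromine array, against 2293, 1629 and 652 in the aof2, rfk and control siRNA arrays for Krt15. Ezr, which encodes ezrin, the linker between membrane and actin in microvilli, was not among the 20 and had 4580.1 with tranylcypromine against 1847 with control siRNA, and its probe sets gave 1.31 and 2.06.

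Of 25 named epithelial and mesothelial surface genes 7 reached the filter and all 7 were above control (median 1.31), 6 of them highest with tranylcypromine. A gene that reached the filter through its tranylcypromine signal had to lie above control, so this count supports nothing about the 25. Jup, which encodes plakoglobin, stood at 0.91, the tight junction gene Tjp1 at 0.49 and Epcam at 0.17. Markers of mesothelium and epithelium beside these values were mostly dim. Of 5 mesothelial markers Msln and Krt19 reached the filter, with summed signals over the 5 of 2634 with tranylcypromine and 320 with control siRNA, while Wt1 had 11.0 with tranylcypromine against 3.39 with control siRNA, Upk3b 9.25 with tranylcypromine against 6.21 with control siRNA and Lrrn4 20.3 with tranylcypromine against 16.4 with control siRNA. Of 8 epithelial markers Krt19, Epcam and Krt5 reached it. Summed signals over the 8, dim ones included, were 880.0 with tranylcypromine and 460 with control siRNA, and Cdh1 had 8.79 with tranylcypromine against 14.2 with control siRNA. Krt5, a keratin of basal epithelium, stood at -0.08. The part of such cells in the result was not tested.

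Other high genes had varied roles. Atp6v0e2, an isoform of a membrane subunit of the lysosomal proton pump, had 869 with tranylcypromine, 204 with aof2 siRNA, 54.2 with rfk siRNA and 116 with control siRNA, so that the tranylcypromine array stood apart from all others. Scrn1, a secernin, gave 1191 in the tranylcypromine array, against 813, 518 and 206 in the aof2, rfk and control siRNA arrays, and its 3 probe sets agreed at 2.11 to 2.53. Tesc, a calcium-binding regulator of a sodium-proton exchanger, was at 609 with tranylcypromine against 123 with control siRNA. Both Tppp3, a tubulin-binding protein, and Fam107a, an actin-associated stress protein, were higher still with aof2 siRNA: Tppp3 had 576 with tranylcypromine, 783 with aof2 siRNA, 401 with rfk siRNA and 117 with control siRNA, and Fam107a had 947 with tranylcypromine, 2055 with aof2 siRNA, 1003 with rfk siRNA and 199.6 with control siRNA. Crip1, a LIM domain protein, had 3867 in the tranylcypromine array, against 3568, 1121 and 893 in the aof2, rfk and control siRNA arrays. Here the aof2 siRNA array nearly matched the tranylcypromine array.

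Enzymes, a transporter and secreted proteins completed the 20. St6gal1, a sialyltransferase, stood at 2.01 and Pnpla2, which encodes adipose triglyceride lipase, at 2.01. Pnpla2 had signals of 963 with tranylcypromine, 698 with aof2 siRNA, 197 with rfk siRNA and 239.6 with control siRNA. Gdpd1, a lysophospholipid phosphodiesterase, had a further probe set even further above control, at 2.54 against 1.91. The glutamine transporter gene Slc38a1 was at 1.90, with its other probe set at 0.84, and Uap1l1 was at 1.76. Abi3bp, a matrix protein, was above control on all 3 other arrays, with 499 with tranylcypromine, 523 with aof2 siRNA, 429 with rfk siRNA and 155 with control siRNA. AU021092, a gene of unassigned role, stood at 2.88.

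**Figure D2:**
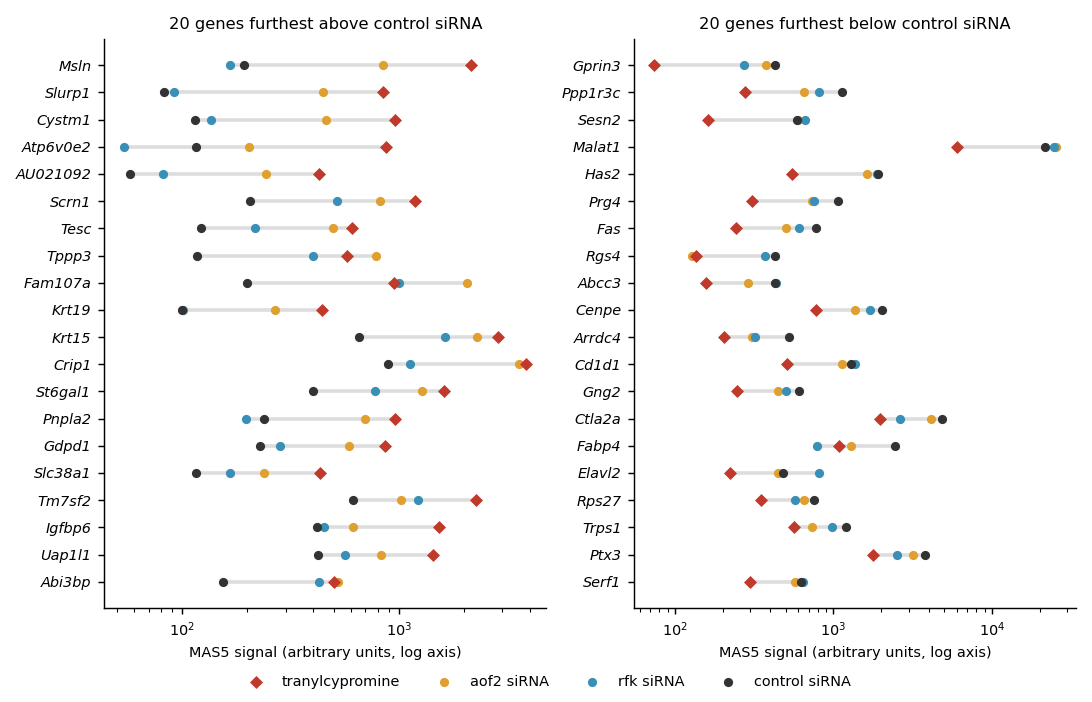
MAS5 signal (log axis, arbitrary units) of the 20 genes furthest above control and the 20 furthest below it, in the tranylcypromine, aof2 siRNA, rfk siRNA and control siRNA arrays, 1 point per array. Msln, Slurp1 and Cystm1 are highest with tranylcypromine, next highest with aof2 siRNA and low in the rest, whereas Sesn2 and Malat1 are low in the tranylcypromine array and lie close together in the other arrays.

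The lowest genes included stress, signalling and matrix genes. Gprin3, which encodes a partner of activated G proteins known from neurons, had 74.2 in the tranylcypromine array, against 377, 274 and 429.7 in the aof2, rfk and control siRNA arrays. Ppp1r3c, the subunit that brings protein phosphatase 1 to glycogen, had 277 with tranylcypromine, 657 with aof2 siRNA, 817 with rfk siRNA and 1133 with control siRNA. Sesn2, a stress-inducible inhibitor of the growth kinase mTORC1, had 162 in the tranylcypromine array, against 597, 659 and 593 in the aof2, rfk and control siRNA arrays. In all 3 genes the tranylcypromine signal was under 50% of the lowest siRNA signal, although other probe sets of Ppp1r3c and Sesn2 gave smaller differences of -0.93 and -0.43. The hyaluronan synthase gene Has2 had 549 in the tranylcypromine array, against 1638, 1896 and 1920.1 in the aof2, rfk and control siRNA arrays, and Prg4, the joint lubricant lubricin, had 307 in the tranylcypromine array, against 732, 753 and 1063 in the aof2, rfk and control siRNA arrays. Fas, the death receptor, had 243 in the tranylcypromine array, against 505, 610.3 and 777 in the aof2, rfk and control siRNA arrays. These 3 lay 2-fold or more below each siRNA array.

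Further down the order, Abcc3, an efflux pump for organic anions, had 157 with tranylcypromine against 429.9 with control siRNA, and Cenpe, a kinetochore motor, 774 with tranylcypromine against 2027 with control siRNA. Arrdc4, an arrestin-related gene that follows glucose supply, had 203 with tranylcypromine against 525 with control siRNA, with its other probe set lower still at -1.81. Cd1d1, which presents lipid antigens, had 513 in the tranylcypromine array, against 1142, 1373 and 1294 in the aof2, rfk and control siRNA arrays. The protease inhibitor gene Ctla2a was at -1.30, the G protein subunit gene Gng2 at -1.30, the RNA-binding protein gene Elavl2 at -1.12, the ribosomal protein gene Rps27 at -1.11, the repressor gene Trps1 at -1.11 and Serf1 at -1.07. Rgs4 and Fabp4 were below control without being the lowest of the 4: Rgs4 had 137 with tranylcypromine, 128 with aof2 siRNA, 369 with rfk siRNA and 431 with control siRNA, and Fabp4 had 1093 with tranylcypromine, 1301 with aof2 siRNA, 791 with rfk siRNA and 2463 with control siRNA. For Fabp4 the control siRNA array was the one that stood apart, as the highest of all.

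**Figure D3:**
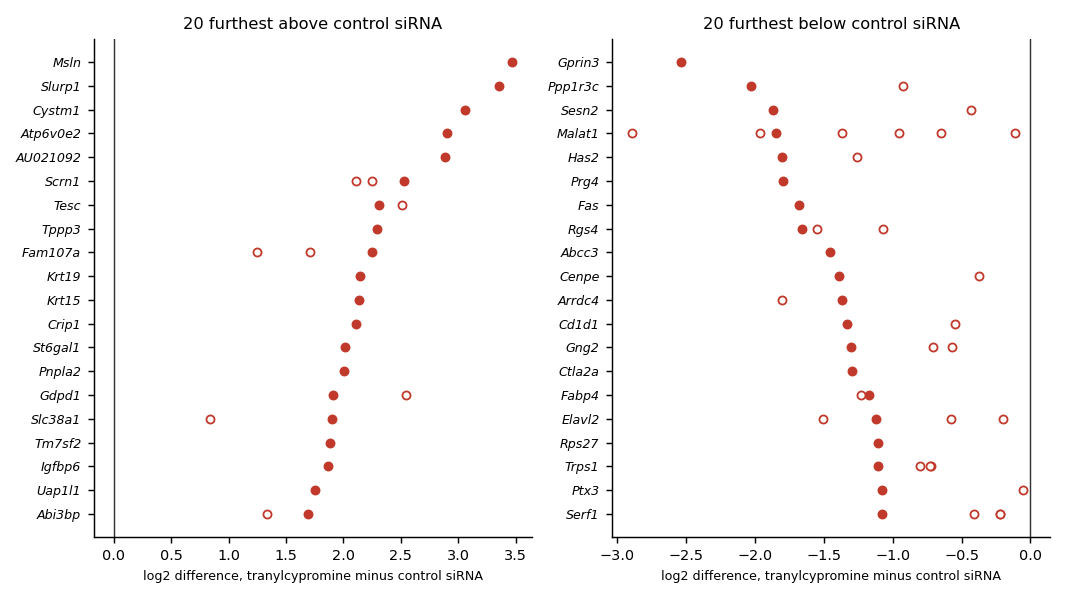
Log2 difference of tranylcypromine minus control siRNA for every probe set at the filter (horizontal axis) of the same 40 genes; filled points are the probe set that represents the gene, open points the others. All points of a gene lie on the same side of 0 by the rule that chose the genes, and among genes with several probe sets the spread is widest for Malat1, from -2.89 to -0.12.

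Malat1, a long non-coding RNA kept in nuclear speckles, shows how far the probe sets of a gene could differ. Its brightest probe set had 5989 with tranylcypromine, 25502 with aof2 siRNA, 24819.8 with rfk siRNA and 21500 with control siRNA. The 7 probe sets ranged from -2.89 to -0.12, and the lowest difference came from one with signals of 1514 with tranylcypromine, 15197 with aof2 siRNA, 12888 with rfk siRNA and 11236 with control siRNA. All 7 lay below control, but those with the smallest differences, at -0.65 and -0.12, had signals of 943 and 1363 with tranylcypromine against 1481 and 1476 with control siRNA. Among 9 long non-coding RNAs 3 were above control and 6 below (median -0.05). Neat1, which builds paraspeckles and lies beside Malat1 in the genome, stood at -0.35 with probe sets up to 0.53, and Gas5 and Snhg1, hosts of small nucleolar RNAs, at -0.13 and -0.11. Meg3, an imprinted RNA, was higher at 0.79.

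Against all 3 siRNA arrays at once, 24 genes (0.222%) were at least 2-fold higher and 38 (0.352%) at least 2-fold lower with tranylcypromine, and among bright genes 4 (0.0582%) were higher and 8 (0.116%) lower. Of the 241 genes 2-fold above control, 199 had their highest signal with tranylcypromine, and of the 102 below it 96 had their lowest. Those genes were chosen by the same tranylcypromine and control signals, which favours these places, so the counts support nothing further. Without that choice, tranylcypromine was highest in 27.7% and lowest in 28.1% of all genes, and in 28% and 27.8% of bright genes. By distance from the nearest siRNA array, Atp6v0e2, Flnc, Msln and Igfbp6 led the higher genes at a signal of 414. Igfbp6, which binds insulin-like growth factors, had 1530 in the tranylcypromine array, against 615, 451 and 420.5 in the aof2, rfk and control siRNA arrays. Flnc, the muscle-type filamin, had 1983 in the tranylcypromine array, against 479.8, 458 and 703 in the aof2, rfk and control siRNA arrays, but its other probe set gave 0.10. The adhesion gene Cadm4 had 510.2 in the tranylcypromine array, against 239, 184 and 189 in the aof2, rfk and control siRNA arrays, and Gm11476, a predicted gene, stood at 1.49. Ddah1, which degrades the nitric oxide synthase inhibitor dimethylarginine, had 1842 in the tranylcypromine array, against 929.6, 892 and 728 in the aof2, rfk and control siRNA arrays, and 4 of its 5 probe sets lay between 1.02 and 1.40 while a dim one gave -0.15. Dpp7, a dipeptidyl peptidase of lysosomes and vesicles, stood at 1.18. On the lower side Xrn2, a nuclear exonuclease, had 1714 in the tranylcypromine array, against 3812, 3456 and 3448 in the aof2, rfk and control siRNA arrays, but other probe sets at -0.06 and 0.55 left its direction unsettled.

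Genes of cholesterol synthesis, the pathway that turns acetyl-CoA into sterol and is switched on by SREBP2 when sterols run low, lay above control throughout. All 17 compared were above control (48% of all genes were), with a median of 0.51, and 16 of 17 were highest with tranylcypromine (27.7% of all genes were). Of the 17, 6 were at least 1.5-fold higher (7.48% of all genes were) and 3 at least 2-fold higher (2.23% of all). Tm7sf2, a sterol C14 reductase, had 2259 with tranylcypromine, 1019.7 with aof2 siRNA, 1218 with rfk siRNA and 613 with control siRNA. Ebp, the sterol isomerase, had 5892 with tranylcypromine, 3672 with aof2 siRNA, 3159 with rfk siRNA and 2448 with control siRNA, and Dhcr7, the last enzyme of the pathway, 1029 in the tranylcypromine array, against 700.4, 868 and 467 in the aof2, rfk and control siRNA arrays. The tranylcypromine array was the highest in all 3, and the control siRNA array the lowest.

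Cyp51, a sterol demethylase, had 3707 with tranylcypromine, 2507 with aof2 siRNA, 2952 with rfk siRNA and 2208 with control siRNA, with its 3 probe sets between 0.47 and 0.75. Pmvk and Mvd, of the mevalonate steps, stood at 0.71 and 0.63. Smaller differences came from Hmgcs1, the synthase before HMG-CoA reductase, at 0.13 (probe sets from -0.10), Sqle at 0.36 and Lss at 0.38. Genes of cholesterol uptake, efflux and SREBP control lay closer to control, 12 of 16 above it with a median of 0.08, but 9 of 16 after the arrays were centred on their medians. The exporter gene Abcg1 stood at 0.63, the sterol receptor gene Nr1h3 at 0.47, Srebf1 at -0.20, Vldlr at -0.22 and Scap at -0.02.

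Promoters are shown because these genes lay above control together. They are RefSeq sequences of GRCm38.p6, from 250 bases before to 50 after the annotated start, printed 5′ to 3′ along the gene's strand. The motif CCAATNNG, read on both strands, holds the CCAAT box that the factor NF-Y binds, often beside SREBP sites. The motif was chosen after the expression values were seen. It occurred in 11 of 17 promoters of these genes (64.7%; 14 of the 17 genes had a RefSeq match) and in 14% of all 32851 promoters of the same length. The motif TCACNCCAC, part of the sterol regulatory element, occurred in 1 of the 17 and in 1.24% of all. Such a match is a description of letters and not a site shown to be bound, and its relation to the expression differences was not tested. In the sequences for Tm7sf2 (chr19:6067801-6068100, minus strand), Ebp (chrX:8193463-8193762, minus strand) and Cyp51 (chr5:4104648-4104947, minus strand), capitals mark the CCAATNNG match, which lies on the opposite strand in Tm7sf2 and Ebp.
Tm7sf2: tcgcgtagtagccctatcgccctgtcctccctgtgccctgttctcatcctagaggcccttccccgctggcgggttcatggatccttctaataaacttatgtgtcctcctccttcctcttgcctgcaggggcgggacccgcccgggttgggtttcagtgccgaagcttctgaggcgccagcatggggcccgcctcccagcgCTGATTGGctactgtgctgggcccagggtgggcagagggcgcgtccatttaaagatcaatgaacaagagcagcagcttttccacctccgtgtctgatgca
Ebp: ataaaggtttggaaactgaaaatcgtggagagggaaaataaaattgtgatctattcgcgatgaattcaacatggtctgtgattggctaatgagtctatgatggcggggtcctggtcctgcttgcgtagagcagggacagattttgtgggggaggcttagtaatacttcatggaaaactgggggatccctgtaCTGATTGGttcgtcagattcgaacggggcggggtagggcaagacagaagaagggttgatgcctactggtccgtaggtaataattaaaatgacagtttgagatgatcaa
Cyp51: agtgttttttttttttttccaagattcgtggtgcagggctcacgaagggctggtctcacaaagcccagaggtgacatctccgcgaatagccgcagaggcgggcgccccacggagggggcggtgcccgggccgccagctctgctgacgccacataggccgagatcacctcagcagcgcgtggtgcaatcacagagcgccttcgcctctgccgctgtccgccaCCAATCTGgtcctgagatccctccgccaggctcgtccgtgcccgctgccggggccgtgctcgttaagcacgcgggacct

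Fatty acid genes were mixed. In fatty acid and triglyceride synthesis 13 of 19 were above control (median 0.26), 11 of them highest with tranylcypromine. The desaturase gene Scd1 had 11529 with tranylcypromine, 8663 with aof2 siRNA, 8965 with rfk siRNA and 7525 with control siRNA. Fasn, fatty acid synthase, had 5064 in the tranylcypromine array, against 3449.6, 4041 and 3312 in the aof2, rfk and control siRNA arrays, and the acetyl-CoA synthetase gene Acss2 stood at 0.61. Below control were Lpin1, a phosphatidate phosphatase that makes diacylglycerol, at -0.55, and the acyltransferase genes of the last step of triglyceride synthesis, Dgat2 at -0.85 and Dgat1 at -0.21. Dgat2 had 281 with tranylcypromine, 283 with aof2 siRNA, 261 with rfk siRNA and 508 with control siRNA, so it was the control array that stood apart. In fatty acid oxidation 13 of 19 were above control (median 0.12), with the thiolase gene Acaa2 at 0.71, Crat at 0.67 and Acadm, medium-chain acyl-CoA dehydrogenase, at 0.54. Among the 6 below it were Hadhb at -0.39, with probe sets up to 0.05, Echs1 at -0.18 and Eci2 at -0.11. In lipolysis and the lipid droplet 4 of 10 were above control and 6 below (median -0.06). Beside Pnpla2, those above were the droplet coat genes Plin3 at 0.62 and Plin2 at 0.37 and the lipase gene Lipe at 0.42. At least 2-fold higher was 1 of the 10 (2.23% of all genes were), and 1 was at least 2-fold lower (0.945% of all genes were). Abhd5 stood at -0.32, with its other probe set at the filter at -0.12.

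Genes of lysosomal acidification lay above control where they could be compared. The V-ATPase is the proton pump that acidifies lysosomes, and its V0 part sits in the membrane while the V1 part burns ATP. All 16 compared subunit and accessory genes lay above control (48% of all genes did), their median being 0.34. Of the 16, 14 were highest with tranylcypromine (27.7% of all genes were). After centring on array medians 15 of 16 were above. Most differences were small: 2 of 16 reached 1.5-fold (7.48% of all genes were that much higher) and Atp6v0e2 alone reached 2-fold (2.23% of all genes did). Atp6v0b, a proton-carrying subunit, had 2335 with tranylcypromine, 1431 with aof2 siRNA, 1269 with rfk siRNA and 1304 with control siRNA, and its 3 probe sets agreed in side, from 0.36 to 0.84. Atp6ap2, the accessory subunit also known as the prorenin receptor, had 10324 in the tranylcypromine array, against 7957, 7073 and 7016 in the aof2, rfk and control siRNA arrays. Atp6v1b2, a catalytic-part subunit, stood at 0.53, Atp6v0e at 0.22, Atp6ap1 at 0.15, Atp6v1a at 0.12 and Atp6v1h at 0.00.

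Lysosomal enzymes and membrane proteins pointed the same way: 24 of 29 lay above control (48% of all genes did), with a median of 0.28. Of the 29, 19 were highest with tranylcypromine (27.7% of all genes were). At least 1.5-fold higher were 5 and at least 2-fold higher 2, against 7.48% and 2.23% of all genes. Ctsd, the aspartic protease cathepsin D, had 10112 with tranylcypromine, 7017 with aof2 siRNA, 4595 with rfk siRNA and 4958 with control siRNA. Neu1, the sialidase, had 524 in the tranylcypromine array, against 298, 246 and 259.8 in the aof2, rfk and control siRNA arrays, and in both genes the tranylcypromine array was the highest and about 2-fold above control. Hexa, a hexosaminidase subunit, and Asah1, acid ceramidase, stood at 0.67 and 0.58. Scarb2, the receptor that carries glucocerebrosidase to lysosomes, stood at 0.67 but had a further probe set at -0.19, and Ctsh at 0.84 was higher still with rfk siRNA. The exceptions below control were Npc1 at -0.25, Glb1 at -0.07, Gusb barely below 0, and the dim Ctsc at -0.57 and Tfeb at -0.87. Tfeb encodes the master regulator of lysosomal genes, and its signals of 51.9 in the tranylcypromine array, against 75.6, 80.6 and 94.8 in the aof2, rfk and control siRNA arrays were close to the filter. Genes of autophagy did not share the direction, with 9 of 21 above control and 12 below (median -0.08), Uvrag at 0.57, Gabarapl1 at 0.52, Ulk2 at -0.47 and Atg13 at -0.53.

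**Figure D4:**
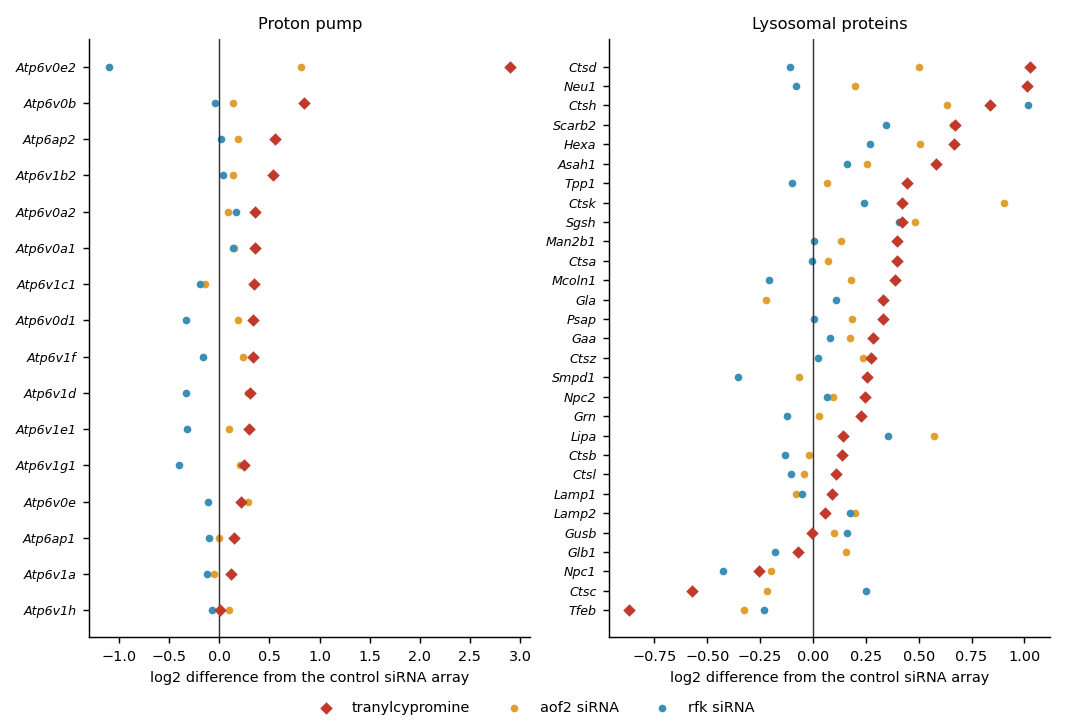
Log2 difference from the control siRNA array (horizontal axis, line at 0) of 16 proton pump genes (left) and 29 lysosomal genes (right), for the tranylcypromine, aof2 siRNA and rfk siRNA arrays, 1 point per array. All 3 sets of points share the control array, and the tranylcypromine points are the highest of the 4 arrays in 14 of the 16 and 19 of the 29 genes.

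The motif TCACGTG, read on both strands and likewise chosen after the values were seen, is the core of the element that TFEB and related factors bind. It occurred in 4 of 11 promoters of proton pump genes (36.4%, 11 of the 16 genes had a match) and in 8 of 29 of lysosomal genes (27.6%, 25 of the 29 had one), against 3.77% of all 32851 promoters. These shares describe the promoters of the lists and not sites shown to be bound, and their relation to the differences was not tested. Genes with the motif included Ctsd at 1.03, Atp6v1a at 0.12 and Glb1 at -0.07. Neu1 at 1.01 and Atp6ap2 at 0.56 were among those without it. Capitals mark it in the promoters of Ctsd (chr7:142387778-142388077, minus strand), where 3 matches were found and a pair of them overlap as 1 palindrome, and of Atp6v0b (chr4:117887280-117887579, minus strand), where there were 2.
Ctsd: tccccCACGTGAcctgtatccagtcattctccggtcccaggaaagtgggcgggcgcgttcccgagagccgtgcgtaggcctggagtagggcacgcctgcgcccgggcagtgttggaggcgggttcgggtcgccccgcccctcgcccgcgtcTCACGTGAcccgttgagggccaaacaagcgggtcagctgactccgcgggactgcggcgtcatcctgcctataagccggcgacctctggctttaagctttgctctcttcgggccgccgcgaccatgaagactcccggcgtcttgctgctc
Atp6v0b: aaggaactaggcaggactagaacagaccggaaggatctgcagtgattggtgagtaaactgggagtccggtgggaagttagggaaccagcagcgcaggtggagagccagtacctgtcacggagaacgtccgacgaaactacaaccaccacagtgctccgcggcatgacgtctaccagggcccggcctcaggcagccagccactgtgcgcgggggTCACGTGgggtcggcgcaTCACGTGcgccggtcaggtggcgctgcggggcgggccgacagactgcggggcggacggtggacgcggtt

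The insulin-like growth factor system lay mostly above control. These factors act through the receptor Igf1r, and the binding proteins hold them in the matrix and serum. Of 12 genes 11 were above control (9 of 12 after centring), where 48% of all genes were, with a median of 0.32. At least 2-fold higher were 4, Igfbp3, Igfbp4, Igfbp6 and the dim Igf1, against 2.23% of all genes. Igfbp3 had 279 with tranylcypromine, 122 with aof2 siRNA, 109.5 with rfk siRNA and 59.9 with control siRNA, with both probe sets near 4-fold at 1.91 and 2.22. Igfbp4 had 7159.7 with tranylcypromine, 5403 with aof2 siRNA, 2577 with rfk siRNA and 3091 with control siRNA, and its 6 probe sets ranged from 1.21 to 2.79. In both genes, as in Igfbp6, the tranylcypromine array was the highest of the 4. Igf1 itself was dim, at 112 with tranylcypromine against 47.1 with control siRNA. The receptor gene Igf1r stood at -0.19, the insulin receptor gene Insr at 0.03, Irs2 at 0.07 and Igfbp7 at 0.06.

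Inflammatory genes lay mostly below control. Of 15 chemokine, cytokine and acute phase genes 13 were below it (52% of all genes were), with a median of -0.66, and 8 were at least 1.5-fold and 4 at least 2-fold lower, against 4.77% and 0.945% of all genes. The control array was high for several of them: against the mean of the 3 siRNA arrays the median was -0.27, and tranylcypromine was the lowest of the 4 in 7. Cxcl13, a B cell attractant, had 98.9 in the tranylcypromine array, against 178, 338 and 256 in the aof2, rfk and control siRNA arrays. Ptx3, a soluble pattern receptor that also crosslinks hyaluronan, had 1783 in the tranylcypromine array, against 3201, 2532 and 3773 in the aof2, rfk and control siRNA arrays, with its other probe set at -0.05. Cxcl1, the neutrophil attractant, had 1125 with tranylcypromine, 1274 with aof2 siRNA, 1769.9 with rfk siRNA and 2296 with control siRNA, and the acute phase gene Saa3 had 145 in the tranylcypromine array, against 155, 401 and 301 in the aof2, rfk and control siRNA arrays. For Cxcl1 and Saa3 the aof2 siRNA array was nearly as low. Above control were Cxcl12, the stromal chemokine, at 0.58 and Ccl8 at 0.54.

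Neighbouring immune lists held some of the same direction. In the NF-kappa-B list 10 of 15 were below control (median -0.24), with Tnfaip6, which remodels hyaluronan, at -0.97, the subunit gene Relb at -0.83, the inhibitor gene Tnfaip3 at -0.66 and the adhesion gene Vcam1 at -0.52. Rela, the main activating subunit, stood at 0.21 and Bcl3 at 0.33. The IL-6 family split 6 above and 8 below (median -0.04), led downwards by Il11, with 121 with tranylcypromine, 112 with aof2 siRNA, 107 with rfk siRNA and 289 with control siRNA. Il11 was high in the control siRNA array alone. Of 21 interferon response genes 11 reached the filter, 4 above and 7 below (median -0.15), with Gbp2 at -0.78 and Ifit2 at -0.69, whereas the membrane tether Bst2 had 496 in the tranylcypromine array, against 341, 230.3 and 198 in the aof2, rfk and control siRNA arrays and was the highest with tranylcypromine. Of 16 named prostaglandin genes 9 reached the filter, 4 above control and 5 below (median -0.07). Ptgs2, the inducible cyclooxygenase, stood at -0.93 and the receptor gene Ptger4 at -0.49, but Ptges, a prostaglandin E synthase, was above control at 0.49 with probe sets from 0.22 to 0.71. Prostacyclin synthase, Ptgis, had 1888 with tranylcypromine, 1754 with aof2 siRNA, 904 with rfk siRNA and 899 with control siRNA, and the prostacyclin receptor gene Ptgir stood at 1.58. Of 7 macrophage markers Csf1r and Cd14 reached the filter, with summed signals over the 7 of 667 with tranylcypromine and 526 with control siRNA, and Ptprc and Itgam were far below it. The part of such cells in the inflammatory values was not tested.

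Genes of hyaluronan and lubricin lay mostly below control. Of 8 compared genes 6 were below control (52% of all genes were), with a median of -0.58. At least 1.5-fold lower were 4 and at least 2-fold lower 3, against 4.77% and 0.945% of all genes. Tranylcypromine was the lowest of the 4 arrays in 5 (28.1% of all genes). The 6 genes below control were Has2, Prg4, Ptx3, Tnfaip6, Hmmr and Hyal2. Their hyaluronan-binding partners Vcan, the proteoglycan versican, and Cd44, the hyaluronan receptor, stood at 0.08 and 0.10. The probe sets of Vcan ranged down to -1.39. Ptx3 and Tnfaip6 are shared with the immune lists above.

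Collagens did not move as 1 group. Of 17 chain genes 8 were above and 9 below (median -0.05). At least 1.5-fold lower were 5 (4.77% of all genes were), most of them chains of fibrils, and 2 were at least 1.5-fold higher (7.48% of all genes were). Col5a2 had 5073 with tranylcypromine, 8230.2 with aof2 siRNA, 7704 with rfk siRNA and 9163 with control siRNA, and both of its probe sets agreed. Col5a1 stood at -0.82 and Col11a1 at -0.87, each with a probe set closer to or above 0, at 0.13 and -0.14. Col1a1 had 729 with tranylcypromine, 983 with aof2 siRNA, 715 with rfk siRNA and 1438 with control siRNA; for it the control siRNA array was the one that stood apart. Col18a1, the source of endostatin, was above control at 0.79, Col16a1 at 0.37 and Col6a3 at 0.30, and the dim Col8a1 at 1.78 rested on a control signal of 31.1.

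Matrix proteases and their inhibitors lay mostly below control, 12 of 16 (52% of all genes were) with a median of -0.15. Tranylcypromine was the lowest of the 4 in 8 (28.1% of all genes). At least 1.5-fold lower were 2 of the 16, against 4.77% of all genes. The aggrecanase genes Adamts4, Adamts5 and Adamts1 stood at -0.90, -0.56 and -0.47, and Mmp19 at -0.93. Adamts1 had 2252 in the tranylcypromine array, against 4115, 4082 and 3114 in the aof2, rfk and control siRNA arrays. The 4 above control were the inhibitor genes Timp3 and Timp2 and the protease genes Mmp14 and Mmp11. Timp3 had 1640.4 with tranylcypromine, 1715 with aof2 siRNA, 1732 with rfk siRNA and 795 with control siRNA: it was low in the control siRNA array and alike in the rest. Timp2 stood at 0.22, with its 5 probe sets up to 0.94, Mmp14 at 0.21 and Mmp11 at 0.13. In actin and smooth muscle genes 10 of 17 were above control (median 0.07). Acta2, smooth muscle actin, stood at -0.62 and Tagln at -1.22, while the transcription factor gene Srf stood at 1.02 (its other probe set at 0.15), Fhl1 at 1.08 and Actn1 at 0.59.

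Regulators of G protein signalling shorten the active state of G proteins. Their list also held Gprin3 and Gpsm1, which are not Rgs genes, and it was chosen with earlier results of these data known. Of 13 genes compared 11 lay below control (52% of all genes were), with a median of -0.45, and 0 had their highest signal with tranylcypromine (27.7% of all genes did). Besides Gprin3 and Rgs4, Rgs2 had 4688 in the tranylcypromine array, against 6870.2, 5978 and 6811 in the aof2, rfk and control siRNA arrays. Rgs3 stood at -0.85, but the probe sets of Rgs2 and Rgs3 ranged up to 0.11 and 0.55. The members above control were Rgs14 at 0.13 and Gpsm1 at 0.07.

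Cell cycle genes lay slightly below control. In S phase 21 of 27 were below (median -0.21), and in G2 and M phase 22 of 29 (median -0.12), where 52% of all genes were. The aof2 siRNA array was as low or lower, with medians against control of -0.21 and -0.29. Tranylcypromine was the lowest of the 4 arrays in 7 of the 27 and 3 of the 29, against 28.1% of all genes. At least 1.5-fold lower were 2 of the 27 and 2 of the 29, a share near the 4.77% of all genes. Ccne2, cyclin E2, had 879.5 in the tranylcypromine array, against 967, 1511 and 1513 in the aof2, rfk and control siRNA arrays, and the licensing gene Cdc6 had 453 with tranylcypromine, 347 with aof2 siRNA, 668 with rfk siRNA and 692 with control siRNA. In G2 and M phase the kinetochore genes Cenpe and Ndc80 stood at -1.39 and -0.59 and the spindle motor gene Kif11 at -0.55, while Nusap1, a spindle protein, was above control at 0.73. In the G1 list 9 of 19 were above and 10 below (median -0.04). Ccnd1, cyclin D1, had 7788 with tranylcypromine, 6378 with aof2 siRNA, 6024 with rfk siRNA and 4830.1 with control siRNA, the highest with tranylcypromine, and its 3 probe sets agreed at 0.69 to 1.03. Cdkn1b, the inhibitor p27, had 2398 in the tranylcypromine array, against 3453, 3500.3 and 3859 in the aof2, rfk and control siRNA arrays, the lowest with tranylcypromine, with a further probe set at -1.71.

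Stress pathways were divided within themselves. Of 18 p53 targets 7 were above and 11 below (median -0.12): beside Sesn2 and Fas, Gadd45a had 721 in the tranylcypromine array, against 980.2, 1009 and 1272 in the aof2, rfk and control siRNA arrays and Btg2 stood at -0.54, whereas Phlda3, an inhibitor of Akt, had 6063 with tranylcypromine, 5050.5 with aof2 siRNA, 4500.2 with rfk siRNA and 3321 with control siRNA. Cdkn1a, the most studied target, stood at 0.01. The ATF4 and unfolded protein list split 12 and 12 (median -0.01). Its amino acid enzymes lay above control, with Phgdh, the entry to serine synthesis, at 0.64 and Psat1 at 0.44, while Nupr1 stood at -0.67, Sdf2l1 at -0.49 and the dim Atf3 at -0.86.

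Heat shock genes lay above control in 14 of 18 cases (48% of all genes did), with a median of 0.17 that was 0.06 after quantile normalization. Hspa4l, an Hsp110 chaperone, had 2069 with tranylcypromine, 1012 with aof2 siRNA, 607 with rfk siRNA and 829 with control siRNA, and 4 of its 5 probe sets lay between 0.84 and 1.32 while a dimmer one gave -0.19. Cryab, a small heat shock protein, had 5475 in the tranylcypromine array, against 4569, 2903 and 2857 in the aof2, rfk and control siRNA arrays, and Hsph1 stood at 0.63. The abundant Hsp90aa1 stood at -0.07 and Dnajb1 at -0.22. Among NRF2 targets and glutathione genes 15 of 22 were above control (median 0.18), 13 of them highest with tranylcypromine, with the glutathione transferase gene Gsta4 at 0.87 and Taldo1 at 0.55. Yet Hmox1, heme oxygenase, stood at -0.64 and Gclc, the rate-limiting enzyme of glutathione synthesis, at -0.52. In drug and aldehyde metabolism 11 of 14 were above control with a median of 0.17, and 9 after centring with a median of 0.10. Aldh1a7, an aldehyde dehydrogenase, had 1406 with tranylcypromine, 3708 with aof2 siRNA, 3039 with rfk siRNA and 834 with control siRNA, so the tranylcypromine array lay well below both targeted siRNA arrays, and Aldh1a1 rested on a control signal of 9.66.

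Genes under hormonal control of the induction were mixed. Of 20 glucocorticoid response genes 13 were above control (median 0.24), with Fkbp5, a chaperone of the receptor, at 0.53, the phosphatase gene Dusp1 at 0.61 and Pdk4 at 0.65, against Zbtb16 at -0.70, Lcn2 at -0.66 and Sgk1 at -0.35. In the cAMP and immediate early list 11 of 20 were above (median 0.08), with Egr1 at 0.92 and the phosphodiesterase gene Pde4b at -0.65. Egr1 had 1368 with tranylcypromine, 1315 with aof2 siRNA, 1827 with rfk siRNA and 722 with control siRNA. It was low in the control siRNA array alone. Of 14 clock genes 9 were below (median -0.26). Dbp, a clock output factor, had 345 with tranylcypromine, 314 with aof2 siRNA, 435 with rfk siRNA and 685 with control siRNA, and Nr1d2 stood at -0.52, while the repressor gene Nfil3 stood at 0.33.

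Growth factor and differentiation lists were also divided. Of 24 named Wnt ligands and antagonists 8 reached the filter, 5 above control and 3 below. Wnt4 had 5417 in the tranylcypromine array, against 4998, 4030 and 3101 in the aof2, rfk and control siRNA arrays, with both probe sets above control, and Wnt5a stood at -0.42. In TGF beta and BMP signalling 12 of 20 were above control (median 0.15). Ltbp2, a matrix protein of the latent TGF beta binding family, had 823 with tranylcypromine, 683 with aof2 siRNA, 454 with rfk siRNA and 332 with control siRNA, and the BMP antagonist gene Grem1 stood at 0.74, while Fst, which encodes the activin trap follistatin, had 1136 in the tranylcypromine array, against 1734, 1799.9 and 2231 in the aof2, rfk and control siRNA arrays. Angiogenic factors lay below control in 12 of 20 cases (median -0.10), with Vegfd at -0.56, Hgf at -0.53 and Vegfc at -0.42. Thbs2, an inhibitor of vessel growth, had 3904 in the tranylcypromine array, against 2149, 2246 and 2329 in the aof2, rfk and control siRNA arrays. Sema3c stood at 1.43, with 2265 with tranylcypromine, 1873 with aof2 siRNA, 2280 with rfk siRNA and 840 with control siRNA. It too was low in the control siRNA array alone. Kdr, the only one of 5 endothelial markers at the filter, had 70.5 with tranylcypromine against 29.0 with control siRNA.

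Adipogenic transcription factors showed no common direction at this time. Of 21 transcription factors 8 were above control and 13 below (median -0.04). Pparg, the nuclear receptor that drives fat cell formation, had 771 with tranylcypromine, 963 with aof2 siRNA, 615 with rfk siRNA and 1047 with control siRNA. Cebpb, its early activator, stood at -0.01 and Cebpa at 0.28. Klf5, an early factor, had 1820 in the tranylcypromine array, against 1957, 1159 and 816 in the aof2, rfk and control siRNA arrays, so that only the aof2 siRNA array was higher, and Ebf1 stood at -0.60. Preadipocyte and anti-adipogenic genes split 10 and 9 (median 0.06), with the inhibitor of differentiation Id1 at 0.44, Ddit3 at -0.48 and Sirt1 at -0.48. Of 16 named genes of mature fat cells 7 reached the filter, 3 above and 4 below control with a median of -0.47. At least 1.5-fold lower were 3 (4.77% of all genes were), and 2 of these, Fabp4 and the dim Retn, were at least 2-fold lower (0.945% of all genes were). Retn, the secreted protein resistin, had 37.8 with tranylcypromine against 81.1 with control siRNA. Lpl, lipoprotein lipase, had 3808 in the tranylcypromine array, against 3919, 5317 and 5272 in the aof2, rfk and control siRNA arrays, and Fabp5 stood at 0.30.

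Lists of energy metabolism had medians close to control. In the thermogenic and PGC-1 list 10 of 14 were above control and 4 below (median 0.14). At least 1.5-fold higher were 4 (7.48% of all genes were), and 1 was at least 1.5-fold lower (4.77% of all genes were). Subunits of the respiratory chain and ATP synthase lay above control in 40 of 48 cases (48% of all genes did), with a median of 0.12. Of the 48 subunits 33 were highest with tranylcypromine (27.7% of all genes were). However, 0 of the subunits reached 1.5-fold, and after quantile normalization 33 lay above control. Their range was narrow, from -0.23 for Ndufa5 to 0.32 for Atp5d. Ppargc1a, the coactivator of mitochondrial genes, had 349.9 with tranylcypromine, 207 with aof2 siRNA, 288 with rfk siRNA and 91.0 with control siRNA, and all 5 of its probe sets lay between 1.40 and 2.01. For Ppargc1a the control siRNA array was the lowest of the 4, and both targeted siRNA arrays lay well above it. Esrra, the nuclear receptor Ppargc1a works with, stood at 0.61, with a further probe set at -2.93. Tfam, the mitochondrial DNA factor, stood at -0.25, Pprc1 at -0.14 and Tfb1m at -0.08. In glycolysis 9 of 16 were above and 7 below (median 0.02), with Hk2 at -0.39, Slc2a1, the basal glucose transporter, at -0.30, Pkm at 0.26 and the dim Pfkfb3 at -1.57. Glycogen genes split 8 and 9 (median -0.03). Beside Ppp1r3c, its relatives Ppp1r3d and Ppp1r3b stood at -0.73 and -0.45, both dim, while Gyg, the glycogen primer, stood at 0.47 and the phosphorylase gene Pygb at 0.39.

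The ribosomal protein genes of the list, which does not hold the Rps27 named above, lay above control in 20 of 22 cases with a median of 0.14, but after quantile normalization in 10 of 22 with a median of -0.015, so their direction depended on the scaling. Rplp0 stood at 0.24, Rpl14 at 0.44 and Rpl37 at -0.19, and 0 of the 22 reached 1.5-fold. Of 26 genes listed as neuronal with binding sites for REST 8 reached the filter, 5 above control and 3 below. The sites were not looked for here. Those at least 2-fold higher (2.23% of all genes were) were Atp6v0e2, Scrn1 and Tppp3, described above among the 20 highest. The list was chosen with earlier results of these data known, so these genes support nothing about the list. The neuropeptide gene Vgf was 2-fold lower (0.945% of all genes were), with 49.3 with tranylcypromine, 41.4 with aof2 siRNA, 50.2 with rfk siRNA and 116 with control siRNA, high in the control siRNA array alone. Bdnf, a nerve growth factor, had 935 with tranylcypromine against 931 with control siRNA, Tubb3, neuronal tubulin, stood at -0.48, and L1cam at -0.35. Of 5 neuronal markers Tubb3 and Map2 reached the filter. Summed signals over the 5, dim ones included, were 306 with tranylcypromine and 264 with control siRNA. Tubb3 had 67.5 with tranylcypromine against 94.2 with control siRNA, and Map2 had 111 with tranylcypromine against 86.5 with control siRNA.

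**Figure D5:**
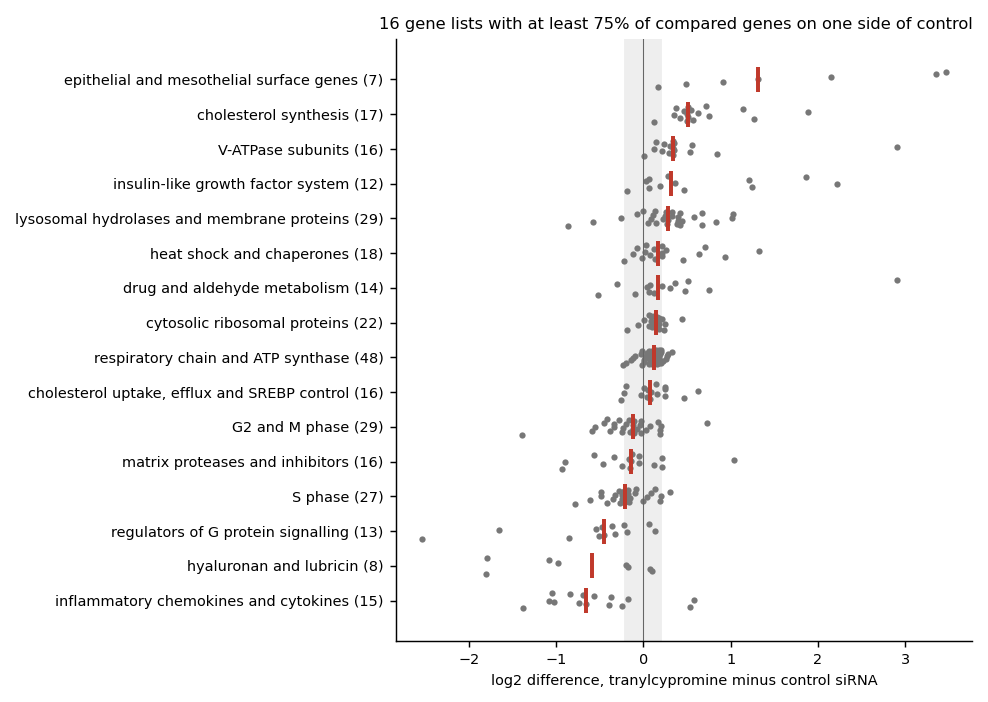
Log2 difference of tranylcypromine minus control siRNA (horizontal axis) for the compared genes of the 16 lists, of 48, with at least 75% of genes on 1 side of control; grey points are genes, red bars list medians, numbers in brackets the genes compared, and the grey band the middle 50% of all 10788 genes. Cholesterol synthesis and V-ATPase genes lie wholly above 0, inflammatory and G protein regulator genes mostly below it, and the medians of the respiratory chain, ribosomal and G2 and M phase lists lie inside the band.

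Over the 48 lists, which hold 996 named genes with 800 compared (marker lists included), 10 lay mostly above control and 6 mostly below by the measure of that plot. All lists were chosen with earlier results of these data known, so these counts describe the lists and support nothing about them beyond that. The lists that lay above were those of cholesterol synthesis, its uptake and control, the proton pump, lysosomal proteins, growth factor binding, heat shock, aldehyde metabolism, ribosomal proteins, the respiratory chain and, with 7 of 25 genes compared, surface genes. Those below were inflammation, hyaluronan and lubricin, matrix proteases, G protein regulators, S phase, and G2 and M phase. Among these 16 lists, medians beyond the middle 50% of all genes belonged to cholesterol synthesis, the proton pump, growth factor binding and lysosomal proteins on the upper side, and to inflammation, hyaluronan and lubricin, and G protein regulators on the lower. The median of the surface genes lay on the upper side too, but supports nothing for the reason given above. The same limit holds in part wherever many named genes missed the filter: 8 of 14 hyaluronan and lubricin, 15 of 24 inflammatory, 14 of 23 aldehyde metabolism, 13 of 19 G protein regulator, 16 of 21 proton pump and 16 of 21 protease genes were compared, so the counts describe those genes and not the whole lists. In cholesterol synthesis, the respiratory chain, S phase, and G2 and M phase all named genes were compared.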

How the data were processed

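Expression was measured in 4 cultures of 3T3-L1 cells, with 1 Affymetrix 3' array of 45101 probe sets each, from 250 ng of total RNA labelled as biotin cRNA. The deposited values are linear intensities, MAS5 signals made by the authors per the submitters' processing notes; its version, its scaling target and any detection calls were not given in the sources used here. No offset was added before log2, and the number of arrays, 1 a group, limits the precision. Groups were taken from the labels, and whether the 2 at the end of the control array's title marks a further culture is not given there.

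Gene names came from the platform annotation, with 1 symbol for 34958 probe sets, several for 932 (which named no gene) and none for 9211. The identifiers of 34754 were found in the RefSeq table of GRCm38.p6, and 0 symbols changed. The genes and lists were chosen with earlier results of these data known. Named were Kdm1a, Kdm1b, Maoa, Maob and Rfk, the 20 highest and 20 lowest genes that reached a signal of 414 on the brighter array and whose probe sets agreed in side, up to 4 highest and 4 lowest members of each list, the 10 genes furthest from the nearest siRNA array in each direction at that brightness, and the genes at the filter's edge. Others were picked after their values were seen.

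No comparison could be tested. The alternatives were centring on array medians, quantile normalization, an offset of 16 before the log, no filter, a filter at the 75th percentile, the mean over probe sets, dropping probe sets of several transcripts, agreement of all probe sets, the mean of the 3 siRNA arrays as comparison and a 1.5-fold threshold. The count of genes 2-fold beyond each siRNA array and its alternatives were added after the data were seen. The steps were tested on simulated data. Python 3.11.15, NumPy 2.4.6, pandas 2.3.3 and matplotlib 3.10.9 were used.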

Additional observations from a re-analysis of the deposited data

Results flagged for a closer look

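Signal outside the named genes was present. Of 891 probe sets without 1 gene name whose brighter array reached a signal of 414, 13 were at least 2-fold higher and 8 at least 2-fold lower with tranylcypromine than with control siRNA. They enter no comparison above, because the annotation used here ties them to no single gene.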

How the results depend on the processing

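The counts moved most with the filter on dim probe sets. The 241 genes at least 2-fold higher became 2234 with no filter on signal, 67 with the filter at the 75th percentile, 104 against the mean of the 3 siRNA arrays and 807 at 1.5-fold. The 102 lower genes became 1557 with no filter, 21 with the stricter filter, 63 with an offset of 16 and 515 at 1.5-fold. The 24 genes 2-fold above each siRNA array became 487 with no filter and 4 with the stricter filter, and the 38 below each became 596 with no filter, 8 with the stricter filter and 19 with the offset. The other alternatives stayed within 1.5 times these counts: centring gave 203 higher and 132 lower (60.6% higher, against 70.3%), and quantile normalization 241 and 107. The mean of the 3 siRNA arrays gave 80 lower genes beside the 104 higher (56.5% higher). Over the 48 lists, 369 recomputed medians were counted as the same, within 0.36, the pooled SD over probe sets of a gene on these arrays. A further 14 differed by more, and 1 was counted as reversed, that of ribosomal proteins with quantile normalization at -0.015. Medians near 0, such as that of glycolysis at 0.02, could change sign and still count as the same. Centring alone lowered the median over all genes from -0.016 to -0.078. Over 409 named genes 2925 recomputed differences stayed close and 151 moved, of which 78 did so against the mean of the siRNA arrays; 0 changed sign in a called gene. No paired analysis was possible because each group had 1 array. Signal over background limits dim genes most, and no detection calls were used.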
